A study of Mus musculus with 4 samples.

Results

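The collagen chain genes were examined on 4 Affymetrix mouse genome arrays, 1 each for mandible and maxilla (jaw below) and for brain of FoxO6-/- and WT mice. Members were all genes whose symbol has the form Col, number, a, number in the platform annotation, which gave 42 of the 18193 genes with a probe set of their own. For each gene 1 of its probe sets was read, the brightest on average over the 4 arrays, out of 82 collagen probe sets. Col21a1, Col6a6 and Col28a1 were on the class lists without a probe set and were not analysed here. In FoxO6-/- mice the coding region is replaced by a LacZ and neomycin cassette in every cell, from embryonic stem cells of C57BL/6 mice, on a C57BL/6 background, and WT mice carry no such allele. The labels give postnatal day 0 for all arrays, whereas the paper places the jaw tissue at E18.5. RNA of 4 animals was pooled for each jaw array, and the methods name heterozygotes as well as nulls among the mutants, so the array labelled FoxO6-/- may hold both. The number of animals behind a brain array is not stated in the labels or the methods. Neither genotype was treated, and the groups share the hand dissection of the head with scissors. With 1 array per group, differences between genotypes within a tissue have no test and no SD.

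Collagens are triple helices of alpha chains that are folded in the endoplasmic reticulum, secreted and crosslinked outside the cell. Fibrillar chains build the fibrils of bone, dentin, skin and tendon, and a separate set of chains builds the fibrils of cartilage. Other classes form the sheets of basement membranes, coat fibrils (the FACIT chains, fibril-associated collagens with interrupted helices), span the cell membrane, or assemble beaded filaments and short chain networks. In the growing head, cartilage forms Meckel's cartilage, the nasal capsule and the skull base, while bone and dentin of the jaw rest on type I fibrils.

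The promoter sequences of the cartilage chains are shown first, since these genes differed together between the genotypes. They are the 120 bases before the start site on the gene's own strand, from RefSeq on GRCm38.p6. RefSeq entries were matched for 33 of the 42 members in 36 windows. Capitals mark TATAAA on the gene strand, CCAAT or its reverse ATTGG, and GGGCGG or its reverse CCGCCC. Col9a1 has an upstream start (chr1:24177490-24177609, plus strand) and a downstream start (chr1:24195083-24195202, plus strand). Col9a2 lies at chr4:121039446-121039565, Col10a1 at chr10:34389861-34389980, Col11a1 at chr3:114030420-114030539, Col11a2 at chr17:34039018-34039137 and Col27a1 at chr4:63215292-63215411, all on the plus strand. Col1a2 (chr6:4505498-4505617, plus strand) is given as a fibrillar chain of bone, and Col17a1 (chr19:47692043-47692162, minus strand) as the chain with the largest tissue difference. There was no entry for Col2a1 and Col9a3.
Col9a1 upstream start: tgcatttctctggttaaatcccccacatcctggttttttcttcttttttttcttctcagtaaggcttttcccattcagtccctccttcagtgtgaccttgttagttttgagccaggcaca
Col9a1 downstream start: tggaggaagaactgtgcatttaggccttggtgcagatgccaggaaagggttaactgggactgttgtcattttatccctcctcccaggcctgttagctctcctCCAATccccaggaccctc
Col9a2: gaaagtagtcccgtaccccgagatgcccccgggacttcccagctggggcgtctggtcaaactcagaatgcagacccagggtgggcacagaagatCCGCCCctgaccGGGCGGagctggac
Col10a1: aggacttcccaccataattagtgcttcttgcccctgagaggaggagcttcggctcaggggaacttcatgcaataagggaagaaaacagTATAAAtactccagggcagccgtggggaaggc
Col11a1: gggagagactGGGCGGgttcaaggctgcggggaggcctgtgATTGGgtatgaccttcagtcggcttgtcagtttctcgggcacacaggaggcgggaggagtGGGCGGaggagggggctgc
Col11a2: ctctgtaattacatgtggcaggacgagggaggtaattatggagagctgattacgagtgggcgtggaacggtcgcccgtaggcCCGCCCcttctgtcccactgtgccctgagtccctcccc
Col27a1: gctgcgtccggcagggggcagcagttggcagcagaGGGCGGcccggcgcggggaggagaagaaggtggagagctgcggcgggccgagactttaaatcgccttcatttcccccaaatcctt
Col1a2: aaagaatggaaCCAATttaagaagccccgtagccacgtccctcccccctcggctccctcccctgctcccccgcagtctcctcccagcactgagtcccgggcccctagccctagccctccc
Col17a1: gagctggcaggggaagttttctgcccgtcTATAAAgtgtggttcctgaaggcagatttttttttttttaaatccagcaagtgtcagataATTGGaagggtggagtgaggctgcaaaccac

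The cartilage promoters did not share one layout. Over the 250 bases before the start, TATAAA was found in 2 of the 7 cartilage windows, Col10a1 and Col11a2, against 7.59% of 32851 windows of all genes. In Col10a1 it begins at -32 from the start. GGGCGG on either strand was found in 4 of the 7 cartilage windows and in 58.3% of the collagen windows, against 32.7% of all windows. CCAAT on either strand was found in 2 of the 7, Col9a1 downstream and Col11a1, against 33.8%. The motifs AACAAT and ACAAAG on either strand, of the kind bound by SOX factors, were looked for because SOX9, SOX5 and SOX6 are known to act on cartilage collagen genes. At least 1 of these SOX motifs was present in 1 of the 7 cartilage windows, Col10a1, against 24.0% of all windows. These matches describe letters in a short window and not sites in use.

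Signals are on the deposited scale, with a trimmed mean of 500 on every array, and the median of all signals, 101, served as floor. Of the 42 members 37 had a mean signal at or above it over the 4 arrays, and 36 in each tissue. Those below it over the 4 arrays were Col4a3, Col4a4, Col4a6, Col6a4 and Col6a5. The ratio of 3' to 5' signal for Actb, a measure of RNA and labelling quality, was 3.37 on the FoxO6-/- jaw array and 2.21 to 2.23 on the others. The part of this in the jaw ratios was not tested. The deleted gene itself could not be read, as no probe set carried the name Foxo6. The tissue labels were checked with marker lists. Over 12 neuron markers the summed signal was 73964.5 and 58622 on the FoxO6-/- and WT brain arrays, against 4421 and 6632 on the jaw arrays. The odontoblast gene Dspp had 2346 and 1597 on the FoxO6-/- and WT jaw arrays, against 2.94 and 1.98 in brain. The brain arrays also carried markers of other tissues, with all 13 chondrocyte, all 9 skeletal muscle and all 8 measured epithelial markers at or above the floor on both, and the bone sialoprotein gene Ibsp at 9445 in FoxO6-/- and 10179 in WT. Collagen signals on the arrays labelled brain were therefore measured together with signals of bone, cartilage, muscle and epithelium, and the part of these in each collagen signal was not tested.

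In jaw the cartilage collagens had lower signals in FoxO6-/- than in WT, and in brain they had higher signals in FoxO6-/- than in WT. All 7 members above the floor in jaw were lower, where 51.3% of all 12186 genes were, and the median log2 ratio of FoxO6-/- over WT was -0.72 against -0.01 for all genes. All 8 were higher in brain, where 57.3% of all 12327 genes were, with a median log2 ratio of 0.76 against 0.05. The opposite directions held for 7 of 7 members above the floor in both tissues, and 27.8% of 11494 genes had them. In bulk tissue, fewer cells of a type and less RNA per cell cannot be told apart.

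Col2a1, the main fibril chain of cartilage, had a signal of 6153 on the FoxO6-/- jaw array and 10283 on the WT jaw array, and of 11165 and 7409 on the FoxO6-/- and WT brain arrays. The log2 ratios were -0.74 in jaw and 0.59 in brain. The high signals were thus those of WT jaw and FoxO6-/- brain. Type IX chains sit on the surface of type II fibrils. Col9a1 had 9926 and 14365 on the FoxO6-/- and WT jaw arrays and 14736 and 8402 on the brain arrays in the same order, with log2 ratios of -0.53 and 0.81. Col9a2 had 352 and 659.7 in jaw and 793 and 414 in brain, with log2 ratios of -0.91 and 0.94. Col9a3 showed the widest gap of the class. Its signal was 1662 on the FoxO6-/- and 4383 on the WT jaw array, and 4208 and 2203 on the FoxO6-/- and WT brain arrays. With a log2 ratio of -1.40 it was the only collagen above the floor that was at least 2-fold lower in FoxO6-/- jaw, where 1.69% of all genes were, and in brain its log2 ratio was 0.93. With probe sets averaged per gene the jaw log2 ratio of Col9a3 was -0.22, and the collagen at least 2-fold lower was Col26a1 instead. Both averages take in a probe set below the floor.

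Type XI chains join type II in the core of cartilage fibrils. Col11a1 had 8587 and 11107 on the FoxO6-/- and WT jaw arrays and 10595 and 6474 on the FoxO6-/- and WT brain arrays, for log2 ratios of -0.37 and 0.71. Col11a2 had 997 and 1501 in jaw and 1198 and 892 in brain, for log2 ratios of -0.59 and 0.43. Both were lowest on the same pair of arrays as Col2a1, FoxO6-/- jaw and WT brain. Col27a1, a fibrillar chain of growing cartilage, had 1473 and 2421 in jaw, a log2 ratio of -0.72, and 1812 and 1683 in brain, a log2 ratio of 0.11. Its brain signals lay close together. Col10a1, the chain of hypertrophic chondrocytes, stood apart from the class in jaw, where both signals were below the floor at 89.4 and 88.7. In brain it had 200.5 on the FoxO6-/- array and 103 on the WT array, a log2 ratio of 0.96.

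**Figure D1:**
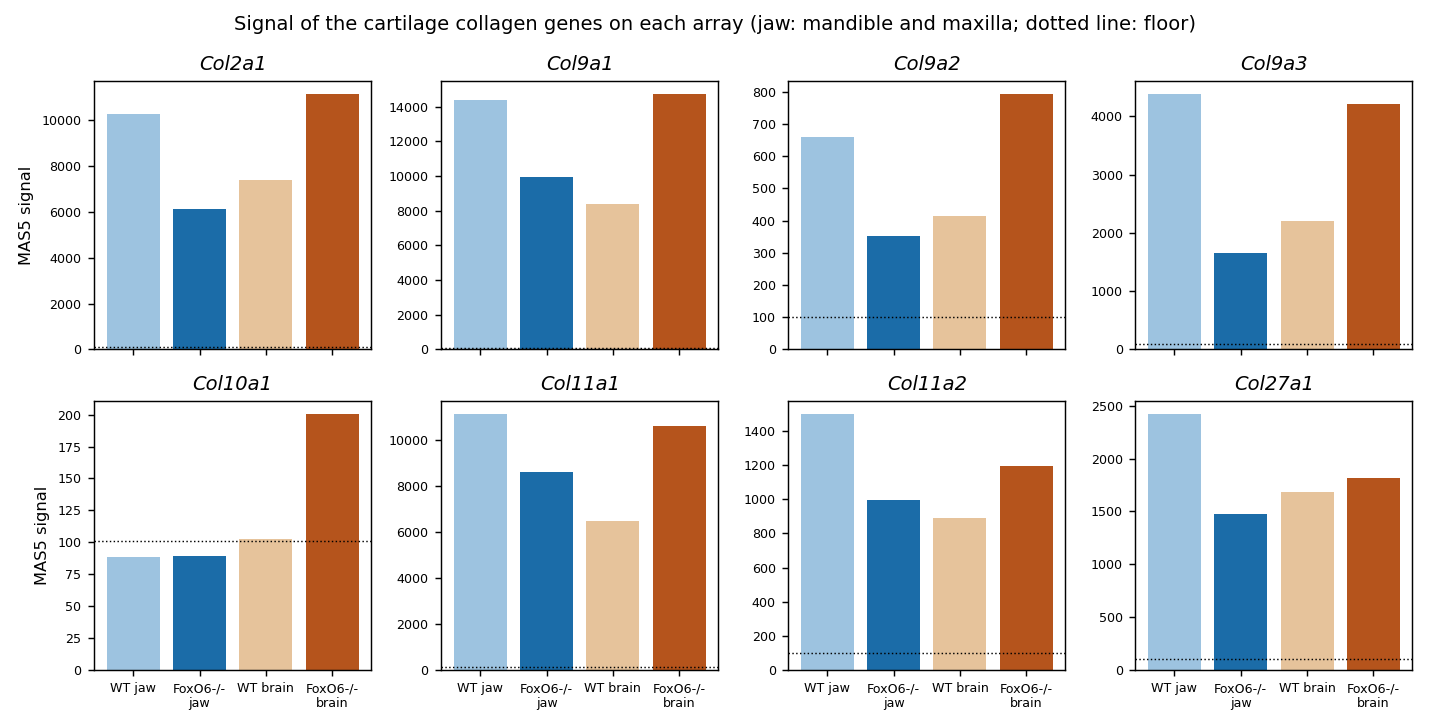
Signal of the 8 cartilage collagen genes (vertical axis, MAS5 signal, a separate linear scale from 0 for each gene) on the 4 arrays, with 1 bar per array and a dotted line at the floor of 101. The FoxO6-/- jaw bar is below the WT jaw bar in all genes but Col10a1, and the FoxO6-/- brain bar is above the WT brain bar in all 8.

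Other probe sets above the floor bore on these directions unevenly. A further probe set gave log2 ratios of -0.93 in jaw and 1.13 in brain for Col9a1, -0.67 and 0.65 for Col11a1, and -0.72 and 0.88 for Col9a3. The further probe set of Col27a1 gave 0.04 in jaw and 0.48 in brain, so that the lower jaw signal of this gene was seen on 1 of 2 probe sets. The 4927 genes with 2 or more probe sets above the floor give a measure of this spread, in that the 2 brightest differed in the jaw log2 ratio with an SD of 0.42, and in brain with an SD of 0.39. Over the 19 collagen genes with such probe sets these SDs were 0.34 and 0.26. The 2 brightest probe sets had the same direction in 14 of these 19 genes in jaw (all such genes, 61.0%). In brain they had it in 11 of 19 (all such genes, 65.8%). These values describe probe sets on the same arrays and not the spread between animals or pools, which 1 array per group cannot give.

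Chondrocyte markers other than collagens were read beside the class. In FoxO6-/- jaw all 13 were lower (all genes, 51.3%), 8 of them at least 2-fold (all genes, 1.69%). In FoxO6-/- brain 11 of 13 were higher (all genes, 57.3%), 4 of them at least 2-fold (all genes, 1.13%). Their summed signal was 12561 and 22243 on the FoxO6-/- and WT jaw arrays and 27074 and 14089.7 on the FoxO6-/- and WT brain arrays. The lowest jaw log2 ratios were -2.10 for Matn1, a matrilin of cartilage matrix, and -1.25 for Epyc, a proteoglycan of the growth plate, and the highest were -0.29 for Comp and -0.29 for Cnmd. The aggrecan gene Acan had -1.02 in jaw and 0.95 in brain. The exceptions in brain were Sox6 and Ucma, at -0.15 and -0.30. Neuron markers were also lower on the FoxO6-/- jaw array (11 of 11 above the floor, median log2 ratio -0.85, from -1.77 for Elavl3 and -1.64 for Snap25 to -0.36 for Gap43 and -0.03 for Map2). In FoxO6-/- brain 12 of 12 neuron markers were higher (median 0.37), so that 11 of 11 neuron markers above the floor in both tissues had the same opposite directions as the cartilage collagens. This count depends in part on the floor. Snap25 (63.4 and 197 on the FoxO6-/- and WT jaw arrays) and Ina (81.1 and 175) reached it in jaw through the WT array only. Rbfox3, left out as below the floor in jaw at 68.4 and 51.0, had a jaw log2 ratio of 0.42. The summed signals of the neuron markers are given above with the tissue labels. The part of the cartilage or nerve share of the dissected tissue in the collagen ratios was not tested.

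The fibrillar chains of bone and connective tissue showed no such turn between the tissues. In jaw 5 of 7 were higher in FoxO6-/- (all genes, 48.7%) and 2 lower, with a median log2 ratio of 0.12. In brain 3 were higher (all genes, 57.3%) and 4 lower, with a median of -0.03. After median centring of the arrays, however, the brain median was 0.11, and after quantile normalization the jaw median was 0.00. None differed by 2-fold. The type I chains, which form the fibrils of bone and dentin together, parted in jaw. Col1a1 had 13174 on the FoxO6-/- and 13971 on the WT jaw array, and 9307 and 11231 in brain, with log2 ratios of -0.08 and -0.27. Col1a2 had 41006 and 27736 in jaw and 32367 and 26036 in brain, with log2 ratios of 0.56 and 0.31. On these brightest probe sets Col1a2 was higher in FoxO6-/- in both tissues and Col1a1 in neither. A further probe set of Col1a2 gave 0.34 in jaw and 0.11 in brain, and a dimmer one gave -0.27 in jaw and -1.93 in brain (90.3 in FoxO6-/- against 344 in WT). The direction of Col1a2 thus differed between its probe sets in both tissues. A further probe set of Col1a1 gave -0.03 and 0.05.

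Col3a1, the type III chain of soft connective tissue, had 40272 and 30246 on the FoxO6-/- and WT jaw arrays and 30007 and 29132.5 on the brain arrays. Its log2 ratio was 0.41 in jaw and 0.04 in brain. Type V chains set the width of type I fibrils. Col5a2 had 21613 and 16529.6 in jaw and 14144 and 14082 in brain, with log2 ratios of 0.39 and 0.01. For Col3a1 and Col5a2 the FoxO6-/- jaw array was the high one and the other arrays lay below it. Col5a1 had 11404 and 10459 in jaw and 8512 and 8688 in brain, with log2 ratios of 0.12 and -0.03. Col5a3 had 563 and 562 in jaw and 379 and 450.0 in brain, with log2 ratios of 0.00 and -0.25. Col24a1, a fibrillar chain of bone, was lower in FoxO6-/- in both tissues, with log2 ratios of -0.31 and -0.13. Further probe sets gave 0.30 for Col3a1 and 0.33 for Col5a2 in jaw.

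Of 9 basement membrane chains 6 were above the floor. In FoxO6-/- jaw 4 of them were lower (all genes, 51.3%) and in FoxO6-/- brain all 6 (all genes, 42.7%), while after median centring 2 of 6 were lower in jaw and 3 of 6 in brain. Their median log2 ratios were -0.05 in jaw and -0.11 in brain. Col4a1 and Col4a2 form the type IV network found in most basement membranes. Col4a1 had 12849.5 on the FoxO6-/- and 12897 on the WT jaw array, and 9412 and 11324 in brain, with log2 ratios of -0.01 and -0.27. Col4a2 had 4161 and 5176 in jaw and 3521 and 3699 in brain, with log2 ratios of -0.31 and -0.07. The larger ratio in size was thus that of brain for Col4a1 and that of jaw for Col4a2. Both were smaller in size than the SD between probe sets over all genes, 0.39 in brain and 0.42 in jaw. Col4a5 had 1645 and 1763 in jaw and 1227 and 1456 in brain, with log2 ratios of -0.10 and -0.25. The kidney and lung chains Col4a3 (41.5 and 14.7 in jaw, 21.95 and 23.7 in brain) and Col4a4 (42.9 and 70.4 in jaw, 105 and 79.4 in brain) and Col4a6 (109.7 and 72.1 in jaw, 99.0 and 93.0 in brain) were near or below the floor. Their ratios are not read here. A second Col4a6 probe set had 150.4 and 58.3 on the FoxO6-/- and WT jaw arrays.

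Col15a1, a basement membrane zone collagen of vessels and muscle, was the only collagen at least 2-fold higher on the FoxO6-/- jaw array, where 0.591% of all genes were. Its signal was 254 on the FoxO6-/- and 124 on the WT jaw array, a log2 ratio of 1.04, and 240.1 and 249 on the brain arrays, a log2 ratio of -0.05. The WT jaw array was the low one of the 4. The gene has 1 probe set and its WT jaw signal was just above the floor, so no second probe set could be set beside it. Endothelial markers had a median log2 ratio of 0.21 in jaw, with 6 of 8 higher (all genes, 48.7%). They ran in jaw from Cdh5 at -0.07 and Flt1 at -0.02 to Kdr at 0.31 and Pecam1 at 0.32. In FoxO6-/- brain 7 of 8 endothelial markers were lower (all genes, 42.7%), with a median log2 ratio of -0.24. The part of these markers in the Col15a1 values was not tested. Col18a1, the related chain that yields endostatin, was lower in both tissues, with log2 ratios of -0.27 and -0.16. A further probe set gave -0.005 and -0.26. Col7a1, the chain of the anchoring fibrils under epithelia, had 1028 and 879.8 in jaw and 517 and 533 in brain, with log2 ratios of 0.22 and -0.04.

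FACIT chains outside cartilage were spread around 0. In FoxO6-/- jaw 4 of 6 were higher (all genes, 48.7%) and in FoxO6-/- brain 1 of 5 (all genes, 57.3%). After median centring these counts were 5 of 6 and 3 of 5. Col12a1, on the surface of type I fibrils, was lower in both tissues at -0.36 and -0.25, and a further probe set gave -0.35 in jaw and 0.19 in brain. Col14a1 had 0.09 and -0.09 and Col16a1 had -0.11 and 0.27. Col22a1, found at the junction of muscle and tendon, had 0.05 and -0.37, and Col20a1 had 0.18 in jaw. For Col19a1 the brightest probe set gave 0.37 in jaw and a further one -0.38, so its direction is not settled by these arrays. The 4 transmembrane chains were all higher in FoxO6-/- jaw (all genes, 48.7%), with log2 ratios from 0.12 to 0.32. In FoxO6-/- brain 3 of 4 were higher (all genes, 57.3%). With probe sets averaged per gene, however, 2 of 4 were higher and 2 lower in jaw, and the jaw median fell from 0.19 to 0.04. Col13a1, a muscle and nerve junction collagen, had 0.32 and -0.08. Col17a1, the hemidesmosome collagen of stratified epithelia, had 0.24 and 0.22, and Col25a1 had 0.12 and 0.32. Col23a1 had 0.13 and 0.38, but its further probe sets gave -0.17 and -0.43 in jaw. Epithelial markers were higher in FoxO6-/- too, with 7 of 8 in jaw (all genes, 48.7%) and 8 of 8 in brain (all genes, 57.3%). Their median log2 ratios were 0.42 and 0.56. In jaw they ran from Epcam at -0.24 and Cdh1 at 0.07 to Krt4 at 0.65 and Krt14 at 0.74. The part of these markers in the Col17a1 values was not tested.

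The beaded filament, short chain and other collagens, a class that takes in Col26a1, had a median log2 ratio of -0.01 in jaw over 6 members above the floor (0.12 after median centring). In brain all 6 were higher in FoxO6-/- (all genes, 57.3%), with a median log2 ratio of 0.12. Col6a1, Col8a1 and Col8a2 were lower in jaw and higher in brain, as were 27.8% of 11494 genes. The type VI chains form beaded filaments around cells. Their log2 ratios in jaw and brain were -0.11 and 0.00 for Col6a1, 0.08 and 0.05 for Col6a2, and 0.33 and 0.04 for Col6a3. A further probe set of Col6a2 gave -0.06 and -0.12. Col8a1, a short chain collagen of subendothelial matrix, had 2372 and 3279 on the FoxO6-/- and WT jaw arrays and a log2 ratio of -0.47, against 0.23 in brain. A further probe set gave -0.42 in jaw. Col8a2 had -0.10 and 0.35 and Col26a1 had 0.23 and 0.19. Col6a4 and Col6a5 were below the floor on all 4 arrays, with signals from 8.01 to 72.8.

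**Figure D2:**
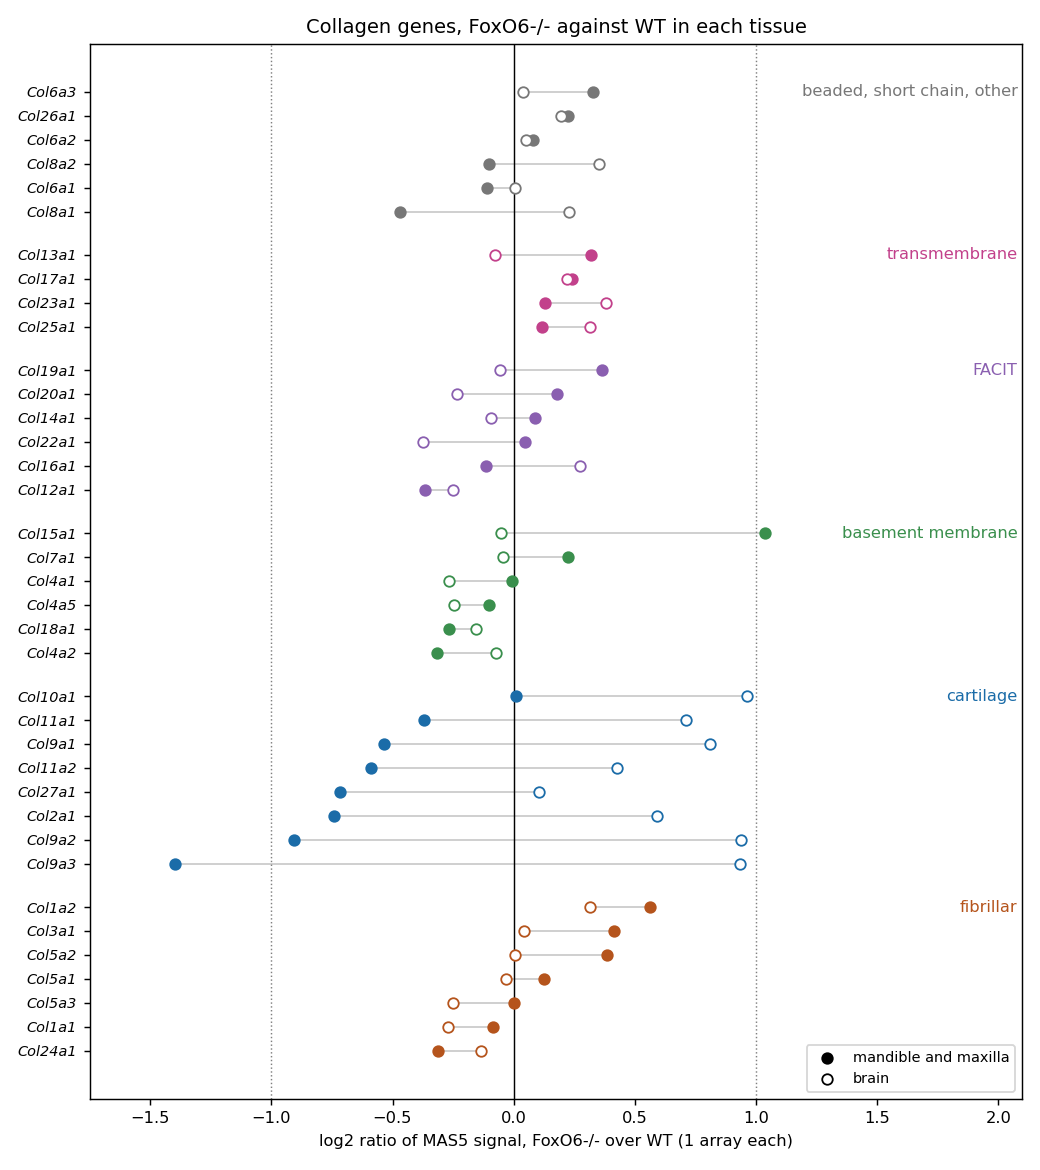
Log2 ratio of MAS5 signal, FoxO6-/- over WT (horizontal axis, 1 array each), for the 37 collagen genes above the floor over the 4 arrays, grouped by class, with filled points for mandible and maxilla and open points for brain and dotted lines at 2-fold. The cartilage genes have their filled and open points on opposite sides of 0, except Col10a1 at 0.01 in jaw. The medians of the other classes lie nearer to 0, but their ranges overlap the cartilage range. In jaw Col1a2 (0.56) is farther from 0 than Col11a1 (-0.37), and in brain Col23a1 (0.38) is farther than Col27a1 (0.11). Col15a1 is the point farthest to the right.

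Over all collagens the genotypes did not part to one side. In jaw 18 of 36 were higher (all genes, 48.7%) and 18 lower. In brain 21 were higher (all genes, 57.3%) and 15 lower, with none at least 2-fold higher (all genes, 1.13%) or lower (all genes, 2.03%). Outside the cartilage class 18 of 29 were higher in jaw and 13 of 28 in brain. These splits depend on the scaling. With each array centred on its median, the median log2 ratio of all genes was 0.12 in jaw and 0.20 in brain, and 24 of 36 collagens were higher in jaw and 29 of 36 in brain. After quantile normalization 14 were higher and 21 lower in jaw. The cartilage counts were 7 of 7 and 8 of 8 under both. The limma fit with tissue and genotype as terms asked which collagens differed between the genotypes over both tissues. It called 0 of 37 collagens and 0% of 12569 genes at an adjusted p under 0.05, with a smallest adjusted p of 0.902 among the collagens. At an unadjusted p under 0.05 it had 0 collagens, against 4.68% of all genes. In this fit a difference between the tissues counts as error, so the opposite directions of the cartilage class enter it as spread.

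Between the tissues, most collagens had a higher signal in jaw than in brain. In WT 35 of 37 were higher in jaw, where 54.3% of all genes were, with a median log2 ratio of 0.52 against 0.05 for all genes. In FoxO6-/- 29 of 37 were higher, where 54.1% of all genes were, with a median of 0.42 against 0.06. Of 35 collagens above the floor in both tissues, 27 were higher in jaw in both genotypes, as were 42.4% of 11494 genes. The cartilage class differed from this. All 7 of its members above the floor were higher in jaw in WT and lower in jaw in FoxO6-/-, and 13.1% of all genes had that pattern. These tissue ratios use the same 4 signals as the genotype ratios above and are not further evidence. For Col9a3 the log2 ratio of jaw over brain was 0.99 in WT and -1.34 in FoxO6-/-, and for Col2a1 0.47 and -0.86.

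The limma fit over the 4 arrays called 5 collagens higher in jaw and 0 lower, where 6.48% and 8.73% of all genes were called. At an unadjusted p under 0.05 there were 11 of 37, against 33.7% of all genes. Col17a1 had signals of 2037 and 1723 on the FoxO6-/- and WT jaw arrays against 609 and 523 in brain, with a log2 difference of 1.73 ± 0.146 (SE) and an adjusted p of 0.0144. Col13a1 had 1145 and 919 in jaw and 394 and 415 in brain, with 1.34 ± 0.181 and an adjusted p of 0.0307. All 4 transmembrane chains were higher in jaw than in brain in both genotypes, as were 42.4% of 11494 genes. Col24a1 had 673 and 835 in jaw and 308 and 338 in brain, with 1.22 ± 0.154 and an adjusted p of 0.0274. Col26a1 had 881 and 753 in jaw and 423 and 370.0 in brain, with 1.04 ± 0.146 and an adjusted p of 0.0332. Col20a1 had 169 and 149.7 in jaw and was below the floor in brain at 66.4 and 78.1, with a log2 difference of 1.14 and an adjusted p of 0.0423. It passed the floor over the 4 arrays through its jaw signals only. With low signals raised to the floor its log2 difference was 0.66, and Col20a1 was not called. All 5 were higher in jaw in both genotypes. Col17a1 was called without any 1 of the 4 arrays. Without the FoxO6-/- brain array it was the only collagen called, and the number called was 3 without the FoxO6-/- jaw array and 3 without the WT brain array. Of the epithelial markers 7 of 8 were called higher in jaw, and of the skeletal muscle markers 8 of 9, and their part in the Col17a1 and Col13a1 values was not tested.

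On their brightest probe sets the type I and type III chains differed little between the tissues. The log2 ratio of jaw over brain was 0.31 in WT and 0.50 in FoxO6-/- for Col1a1, 0.09 and 0.34 for Col1a2, and 0.05 and 0.42 for Col3a1. None had an adjusted p under 0.05 in the limma fit (0.18 for Col1a1, 0.42 for Col1a2 and 0.42 for Col3a1). The dimmer Col1a2 probe set gave 1.47 in WT and 3.13 in FoxO6-/-, so the size of the Col1a2 tissue difference depends on the probe set. Among the type IV chains above the floor, log2 ratios ran from 0.19 to 0.48 in WT and from 0.24 to 0.45 in FoxO6-/-. Col7a1 had 0.72 and 0.99 with an adjusted p of 0.0576. Col15a1 was the exception to the class, with a log2 ratio of -1.01 in WT and 0.08 in FoxO6-/-. At 2-fold with no test, 4 collagens were higher in WT jaw (all genes, 8.53%) and 5 in FoxO6-/- jaw (all genes, 7.74%). The 5 include Col20a1, which was below the floor in brain. Lower by 2-fold were Col15a1 in WT (all genes, 9.85%) and Col9a2, Col9a3 and Col10a1 in FoxO6-/- (all genes, 11.9%).

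**Figure D3:**
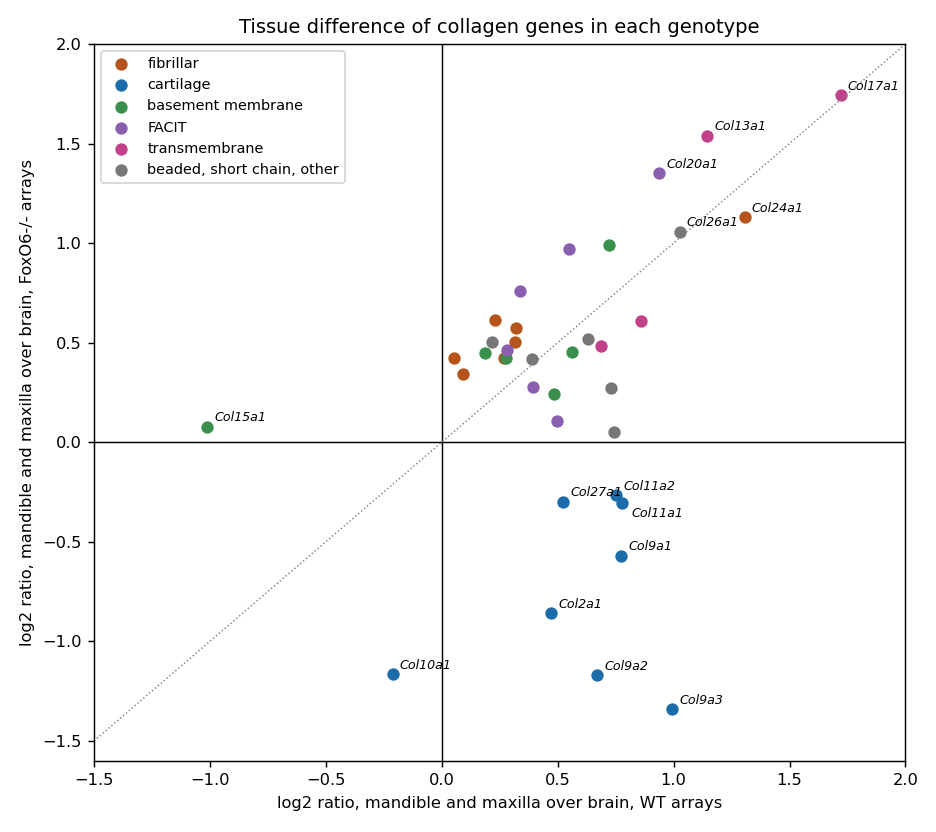
Log2 ratio of signal, mandible and maxilla over brain, on the WT arrays (horizontal axis) against the FoxO6-/- arrays (vertical axis), with 1 point per collagen gene above the floor over the 4 arrays, coloured by class, and a dotted line where both ratios are equal. The cartilage genes lie below 0 on the vertical axis, 7 of 8 of them to the right of 0, while Col17a1, Col13a1, Col24a1, Col26a1 and Col20a1 lie at the upper right.

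Genes that make or read collagen were listed to set beside the chains. Of 24 genes for folding and modification in the endoplasmic reticulum, 23 were measured and all were above the floor. In jaw 11 were higher in FoxO6-/- (all genes, 48.7%) and 12 lower, with a median log2 ratio of -0.03. In brain 16 were higher (all genes, 57.3%) and 7 lower, with a median of 0.08, and none differed by 2-fold in either tissue. The highest in jaw were Fkbp7, a peptidyl-prolyl isomerase, at 0.60 (3828 against 2522) and Colgalt2, a collagen galactosyltransferase, at 0.44. The lowest were the lysyl hydroxylase gene Plod2 at -0.52 (1446 against 2077) and the prolyl hydroxylase gene P4ha3 at -0.50. Plod2 and P4ha3 had 0.21 and 0.72 in brain. Serpinh1, the collagen chaperone HSP47, had -0.21 and -0.40. Between the tissues 22 of 23 were higher in jaw in WT (all genes, 54.3%) and 19 in FoxO6-/- (all genes, 54.1%). By tissue limma called 0 (all genes, 6.48% higher and 8.73% lower in jaw). At an unadjusted p under 0.05 there were 8 of 23, against 33.7% of all genes.

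Of 10 measured genes for procollagen processing and crosslinking, 9 were above the floor in jaw. Of these 5 were higher in FoxO6-/- (all genes, 48.7%) and 4 lower, with a median log2 ratio of 0.10. Pcolce2, an enhancer of C-propeptide cleavage, had 862 and 1369.9 on the FoxO6-/- and WT jaw arrays and 1299.8 and 703 on the brain arrays, with log2 ratios of -0.67 and 0.89. It was high on the same arrays as the cartilage chains. The other low value in jaw was -0.37 for the proteinase gene Tll1, and the high ones were 0.50 for the lysyl oxidase gene Loxl4 and 0.25 for Pcolce. Of 9 measured collagen receptors 6 were above the floor, with 4 higher in FoxO6-/- jaw (all genes, 48.7%) and a median log2 ratio of 0.12. They ran from the integrin genes Itga10 at -0.18 and Itga1 at -0.08 to Itgb1 at 0.24 and the endocytic receptor gene Mrc2 at 0.28. No gene of either list differed by 2-fold between the genotypes in jaw or in brain among those above the floor. Bone and odontoblast markers were 7 of 8 higher in FoxO6-/- jaw (all genes, 48.7%), with a median log2 ratio of 0.27. They ran from Alpl at -0.03 and Ifitm5 at 0.11 to Dspp at 0.55 and Mepe at 0.62. Fibroblast markers had a median of 0.05, from Foxc1 at -0.50 and Thy1 at -0.39 to Dcn at 0.26 and Lum at 0.54, and skeletal muscle markers one of -0.02, from Actn2 at -0.43 and Ttn at -0.22 to Myh8 at 0.04 and Acta1 at 0.33.

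**Figure D4:**
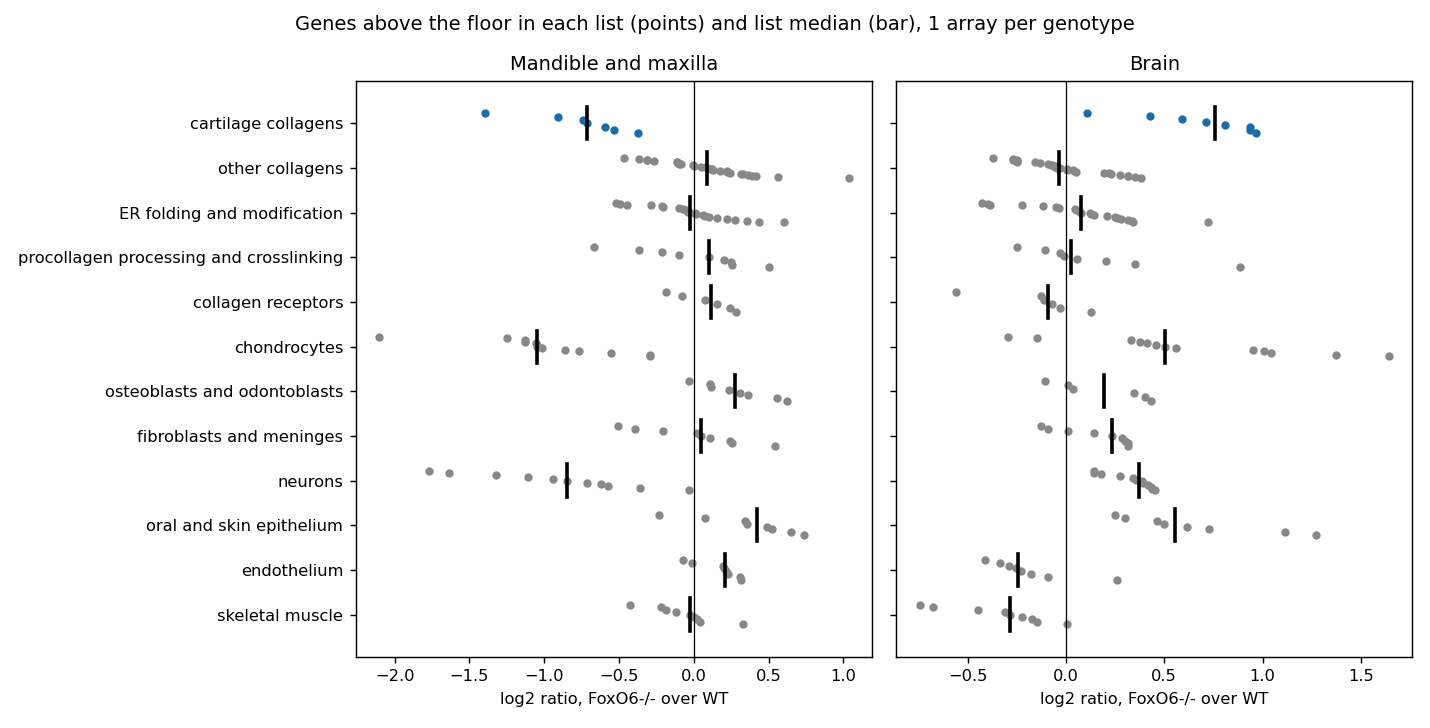
Log2 ratio of signal, FoxO6-/- over WT (horizontal axis, 1 array per genotype), for genes above the floor in the cartilage collagens, the other collagens, the collagen partner lists and the marker lists, with points for genes and a bar for the list median, in mandible and maxilla (left) and brain (right). The cartilage collagens and the chondrocyte markers have medians of -0.72 and -1.05 on the left and of 0.76 and 0.51 on the right, and the partner lists lie around 0.

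Several collagen genes are next to each other in the RefSeq gene order of GRCm38.p6. On their brightest probe sets neighbours did not always have the same direction. Col3a1 and Col5a2, neighbours of the same class, had jaw log2 ratios of 0.41 and 0.39 and brain log2 ratios of 0.04 and 0.01. Col9a1 and its neighbour Col19a1, of different classes, had -0.53 and 0.37 in jaw and 0.81 and -0.06 in brain. A further probe set of Col19a1 gave -0.38 in jaw and 0.11 in brain, the same directions as Col9a1, so this pair is not settled. Col6a1 and Col6a2 had -0.11 and 0.08 in jaw, and a further probe set of Col6a2 gave -0.06, the direction of Col6a1.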

How the data were processed

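Members, classes and gene lists were chosen with earlier results of these data known. The deposited values are MAS5 intensity summaries, linear and scaled by the authors to a trimmed mean of 500 per array (2% left out at each end), and were used without further normalization. The MAS5 version is not stated. Of 45101 probe sets, 34945 with 1 gene were kept, while 932 with several genes, 9160 unnamed ones and 64 controls were left out. Genes were compared where their mean over the arrays in question reached the floor of 101, the median of all signals. The limma fit used log2 signals of 12569 genes with tissue and genotype as terms, which leaves 1 residual degree of freedom, and p-values were adjusted over all genes (Benjamini-Hochberg). It had 2 arrays per tissue, 1 of each genotype, so its errors measure only the spread between these arrays, and the number of arrays limits the precision.

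All collagen genes were named by class. Signals on all arrays were given for members at least 2-fold apart between genotypes, cartilage members and chains of types I, III, IV and V. Of other lists the 2 highest and 2 lowest jaw ratios were named, and Acan, Ibsp, Sox6, Ucma, Serpinh1, and the signals of Col17a1, Col13a1, Col24a1, Col26a1, Col20a1, Col7a1 and Col8a1, were added with their values in view. As alternatives the arrays were quantile normalized or centred on their medians, the floor was dropped, moved to the 75th percentile (524) or used as a lower bound for signals, and probe sets were averaged per gene or limited to gene-specific ones. The limma fit was repeated without the second term, with a variance trend and, for the tissues, without each array. All 42 symbols matched the RefSeq table by Entrez ID, and 0 changed. The limma fit was also run on simulated arrays with known tissue changes, the same noise for every gene and no genotype effect. That setting is simpler than these arrays, so it tried the code and not the calls made here. Fits were run in R 4.3.3 with limma 3.58.1, and tables and plots made in Python 3.11.15 with pandas 2.3.3, numpy 2.4.6 and matplotlib 3.10.9.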

Additional observations from a re-analysis of the deposited data

Results flagged for a closer look

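The cartilage collagens were marked because every member above the floor in both tissues moved one way in jaw and the other way in brain. Chondrocyte markers (11 of 13) and neuron markers (11 of 11) above the floor in both tissues were lower in FoxO6-/- jaw and higher in FoxO6-/- brain too. Among all genes 27.8% had these directions. The neuron count leaves out Rbfox3, which was below the floor in jaw with a log2 ratio of 0.42. The part of these markers in the collagen values was not tested. Over these 7 collagens the median log2 ratio of FoxO6-/- over WT was -0.72 in mandible and maxilla and 0.71 in brain. The difference between the tissues was not tested, since each rests on 1 array per genotype. Brain minus jaw, the difference of the log2 ratios was widest for Col9a3 at 2.33 and Col9a2 at 1.84 and narrowest for Col27a1 at 0.82, with 1.33 for Col2a1, 1.34 for Col9a1, 1.08 for Col11a1 and 1.02 for Col11a2. Outside the class the largest in size among collagens above the floor was -1.09 for Col15a1.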

How the results depend on the processing

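The number of collagens called higher in jaw by limma (5) was 9 with a variance trend, 0 with no floor and 3 with probe sets averaged per gene, and ran from 1 to 6 when each array was left out in turn. The number called lower (0) ran from 0 to 1 when each array was left out, with Col15a1 called without the FoxO6-/- jaw array and Col10a1 without the WT brain array, and at 2-fold with no test it was 1 in WT and 3 in FoxO6-/-. By genotype over both tissues the count was 0 under the 9 alternatives run, which did not include leaving out an array. In jaw, the number at least 2-fold higher (Col15a1) was 2 with no floor and 0 with the floor at the 75th percentile, and the number lower (Col9a3) was 2 with no floor and 1 with averaged probe sets, where the gene was Col26a1 and not Col9a3. In brain, the number higher (0) was 1 after quantile normalization, 3 after median centring (Col9a2, Col9a3 and Col10a1) and 2 with no floor, and the number lower (0) was 1 with averaged probe sets (Col12a1). The averaged Col26a1 value takes in a probe set below the floor, at 9.08 and 54.3 on the FoxO6-/- and WT jaw arrays. The averaged Col12a1 value takes in probe sets below the floor, at 3.43 and 24.3 and at 1.17 and 7.74 on the FoxO6-/- and WT brain arrays. The cause of the other shifts was not tested. With averaged probe sets Col9a3 had a jaw log2 ratio of -0.22, where the average takes in a probe set below the floor at 1.44. The cartilage class median kept its sign in 7 of 7 alternatives in each tissue, from -0.75 to -0.58 in jaw and from 0.71 to 0.90 in brain. The FACIT median in jaw kept it in 4 of 7 (-0.05 to 0.20), and the fibrillar median in brain in 5 of 7 (-0.11 to 0.11). No paired analysis was possible because the labels carry no replicate numbers and each group has 1 array. Members near the floor, such as Col15a1, Col10a1 and Col20a1, are limited by signal over background.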
